A study of Mus musculus with 18 samples.

Results

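Premalignant mouse esophageal organoids that carried a guide RNA against Tgfbr2 were compared with premalignant organoids that carried a control guide, over all genes, and each gene was checked for whether the 2 numbered sgTgfbr2 lines moved alike. The 7 libraries of this comparison were taken by their sample titles from the 18 libraries of the series. The groups were the control guide (sgScr, 3 libraries), sgTgfbr2 number 1 (2 libraries, called line 1 here) and sgTgfbr2 number 2 (2 libraries, line 2). The series asks what loss of Tgfbr2 does in esophageal squamous cell carcinoma, and RNA was sequenced in bulk.

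All 3 groups shared one engineered background: the Trp53 genotype is given as Trp53-/-, Myc as overexpressed (Myc OE), and Cdkn2a as targeted by a further guide (sgCdkn2a), so the sgScr libraries are themselves not wild type. Organoids are 3-dimensional cultures grown in a basement membrane gel from dissociated tissue, here from the mouse esophagus. The culture medium listed for all of them held 50 ng/mL EGF, 200 ng/mL FGF10, 100 ng/mL noggin (a BMP antagonist), 250 ng/mL R-spondin 1, Wnt-3A conditioned medium, 10 µM Y27632 and 2 µM A83-01, which inhibits the type I receptors of TGF-beta and activin. The labels do not say whether the numbers 1 and 2 stand for guides, lines or clones, nor whether libraries of a group came from separate cultures. Each p-value thus rests on variation among the sequenced libraries, which may be technical, and each line is 2 libraries of 1 number.

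TGF-beta ligands are secreted in a latent complex with LTBP proteins and are released by integrins such as alpha-v beta-6. The active ligand binds the type II receptor, encoded by Tgfbr2, which phosphorylates the type I receptor, encoded by Tgfbr1, and this kinase in turn activates SMAD2 and SMAD3, which enter the nucleus with SMAD4. In squamous epithelium the pathway is known as a brake on proliferation and as a regulator of matrix, keratin and inflammatory genes. The related BMP branch signals through SMAD1, SMAD5 and SMAD9 and has the Id genes as its best known targets.

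The libraries held 15405369 to 21784140 counts over 15565 to 16008 detected genes, and 3 counts stood for 0.138 to 0.195 CPM (counts scaled to equal library size, the scale of every level given here). Replicates of a line differed less from each other (chi-square per degree of freedom 6.42 in line 1 and 7.10 in line 2) than the lines did (38.1 to 57.8), and sgScr replicate 3 stood further from the other 2 sgScr libraries (12.2 and 21.3) than those did from each other (6.48). Of the sgScr libraries, replicate 3 also lay nearest to each sgTgfbr2 library (69.5 to 94.6). All 13 squamous epithelial markers were detected, led by Krt5 and Krt14, and summed to 12569 to 13569 CPM in sgScr and 7779 to 11302 CPM in sgTgfbr2. The 6 lists of other cell types summed far lower.

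Tgfbr2 transcripts were reduced but present in both lines. The gene (chr9:116084293-116175360, GRCm38, minus strand, protein coding) was at 193, 189.7 and 219.95 normalized CPM in sgScr, 126 and 128 in line 1 and 102 and 85.4 in line 2. The groups did not overlap, as for 26.4% of all genes tested in this direction and 24.5% in the other. The log2 fold change against sgScr was -0.66 ± 0.10 in line 1 and -1.09 ± 0.10 in line 2 (estimate ± SE; edgeR quasi-likelihood test with Benjamini-Hochberg adjustment, adjusted p = 7.2e-05 and 8.3e-07). The reduction was larger in line 2 than in line 1 (difference -0.43 ± 0.11, adjusted p = 0.0092). Gene-level counts do not show whether the remaining transcripts encode a working receptor. Trp53, whose genotype is given as Trp53-/-, had transcripts at 98.6, 97.4 and 92.8 in sgScr, 60.2 and 65.9 in line 1, and 74.6 and 77.95 in line 2. It fell in both lines, although not past the threshold in line 2 without line 2 replicate 1. Counts over the whole gene do not show which exons were read, so this checks nothing about the deletion. Cdkn2a (288, 306 and 267 in sgScr, 290.3 and 314 in line 1, and 351 and 378 in line 2) and Myc (415, 307 and 411 in sgScr, 428 and 440.3 in line 1, and 628 and 531 in line 2) passed the test in line 2, in which both were higher, and not in line 1.

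**Figure D1:**
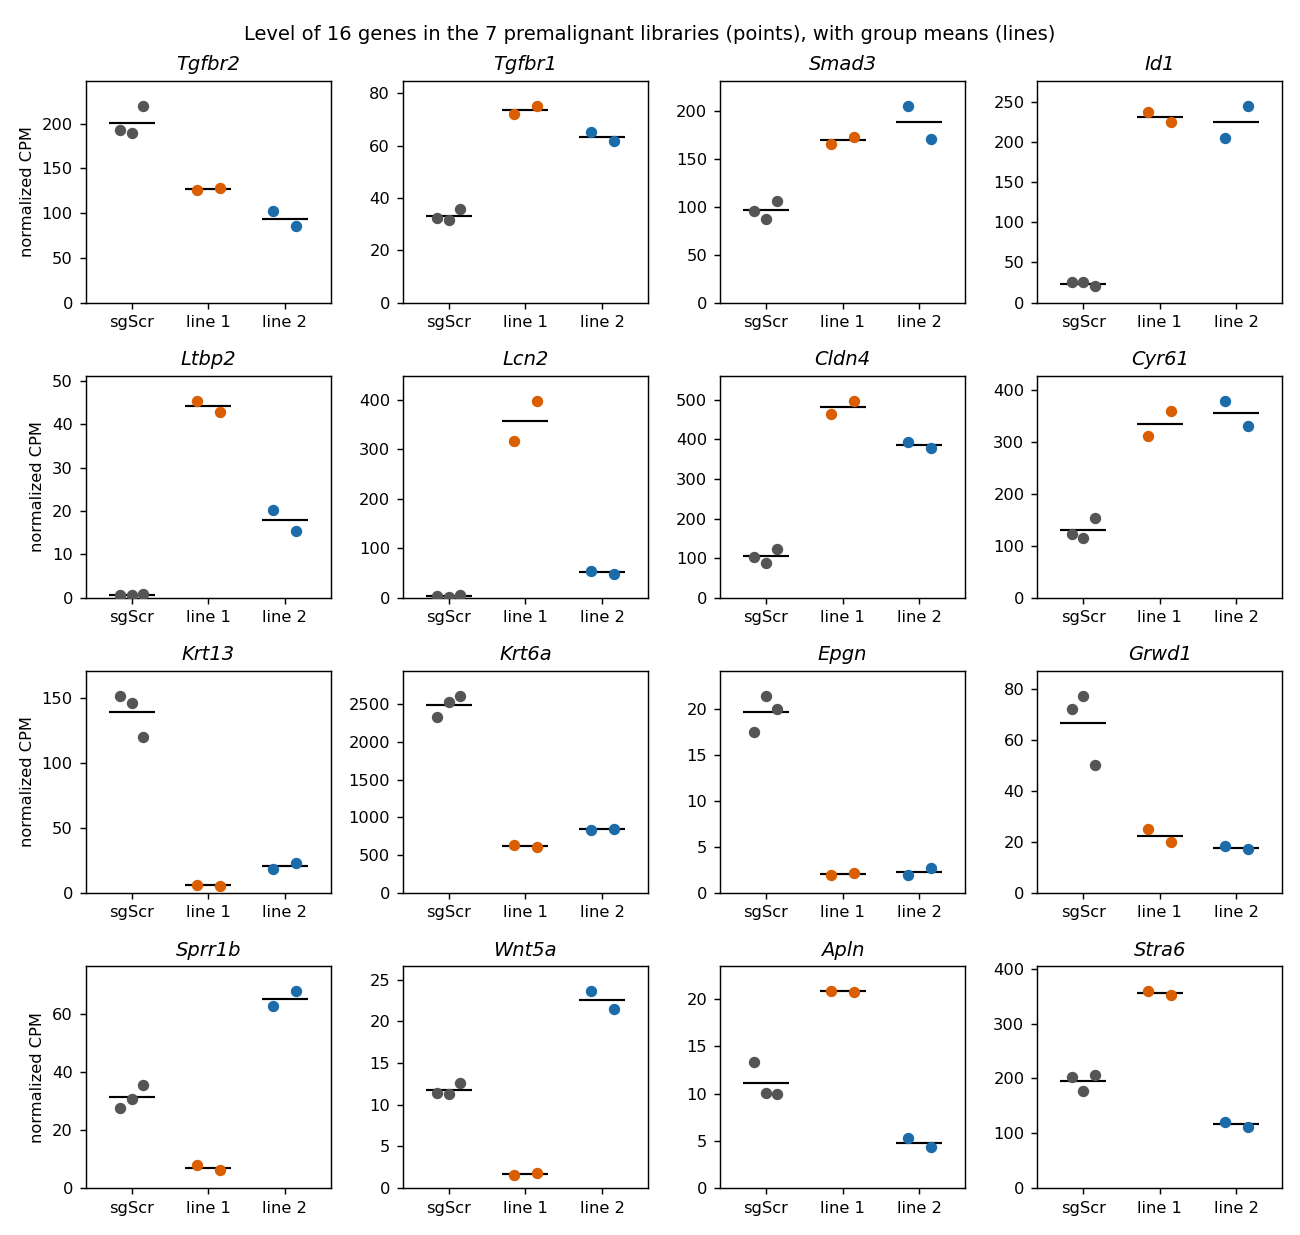
Normalized CPM (linear axis from 0) of 16 genes in the 7 premalignant libraries: points are libraries (grey sgScr, orange line 1, blue line 2) and lines are group means. Tgfbr2, Krt13, Krt6a, Epgn and Grwd1 are lower in all 4 sgTgfbr2 libraries, Tgfbr1, Smad3, Id1, Ltbp2, Lcn2, Cldn4 and Cyr61 are higher in all 4, and the bottom row shows genes in which the lines lie on opposite sides of sgScr.

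Of 13438 genes tested, 2444 rose in both lines (18.2%) and 2661 fell in both lines (19.8%). Opposite movement past the threshold of adjusted p 0.05 was rare, with 177 genes (1.32%), of which 81 (0.603%) were higher in line 1 and lower in line 2 and 96 (0.714%) the reverse. Another 1633 genes (12.2%) passed in line 1 only and 2532 (18.8%) in line 2 only, and 3991 (29.7%) passed in neither. Taken alone, line 1 had 3298 genes higher (24.5%) and 3617 lower (26.9%), and line 2 had 3882 higher (28.9%) and 3932 lower (29.3%). Both lines were set against the same 3 sgScr libraries, so an offset of those libraries enters both comparisons and part of the agreement is shared by construction.

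Passing in one line only is not a difference between lines. Of the 1633 genes that passed in line 1 only, 809 (49.5%, or 6.02% of all genes tested) also differed between the lines in the test of line 2 minus line 1. Of the 2532 that passed in line 2 only, 1171 did (46.2%, or 8.71% of all genes tested). Of the 2444 genes higher in both lines, 666 differed in size between the lines (27.3%, or 4.96% of all genes tested), and of the 2661 lower in both 508 did (19.1%, or 3.78% of all genes tested). Among those 508 lower genes the further fall lay in line 2 for 385 (2.87% of all genes tested) and in line 1 for 123 (0.915% of all). Among those 666 higher genes the further rise lay in line 2 for 359 (2.67% of all) and in line 1 for 307 (2.28% of all). Over all genes the line 2 minus line 1 test called 1768 higher (13.2%) and 1767 lower (13.1%).

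When a change of 1 or more on the log2 scale was also required in both lines, 735 genes were higher in both (5.47%) and 274 lower in both (2.04%). Opposite genes then numbered 3 with line 1 higher (0.0223%) and 16 with line 2 higher (0.119%). When the 4 sgTgfbr2 libraries were pooled, 2993 genes were higher (22.3%) and 3117 lower (23.2%). Both lines agreed for 83.26% of these pooled calls (37.9% of all genes tested), and 1017 of them (16.6%, or 7.57% of all genes tested) passed in one line only. That agreement is high in part by construction, because the pooled fit counts a difference between the lines as spread. Of the 177 opposite genes, 1 was called in the pooled test (0.00744% of all genes tested). The pooled fit takes the 2 libraries of a line as independent, although the correlation within a line was 0.678. With counts summed per line, 2299 genes were higher and 2044 lower, and with line as a correlated block in limma-voom 2223 were higher and 2411 lower. The pooled counts depended on single controls: without sgScr replicate 1 they were 1977 and 2141, and without sgScr replicate 2 they were 1954 and 2089. Without line 1 replicate 2, the genes lower in both lines numbered 1721 and the genes lower in line 1 numbered 2258 rather than 3617. The count of opposite genes was 95 without line 1 replicate 1, 113 without line 1 replicate 2, 98 without line 2 replicate 1 and 114 without sgScr replicate 1. In the test of line 2 minus line 1, leaving out any one library of a line left 691 to 1004 genes higher and 757 to 1003 lower. The authors' deposited table, which compares all 4 sgTgfbr2 libraries with sgScr, held 6354 genes past the same threshold, 3265 higher and 3089 lower, and 5983 of them were called here with the same sign.

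**Figure D2:**
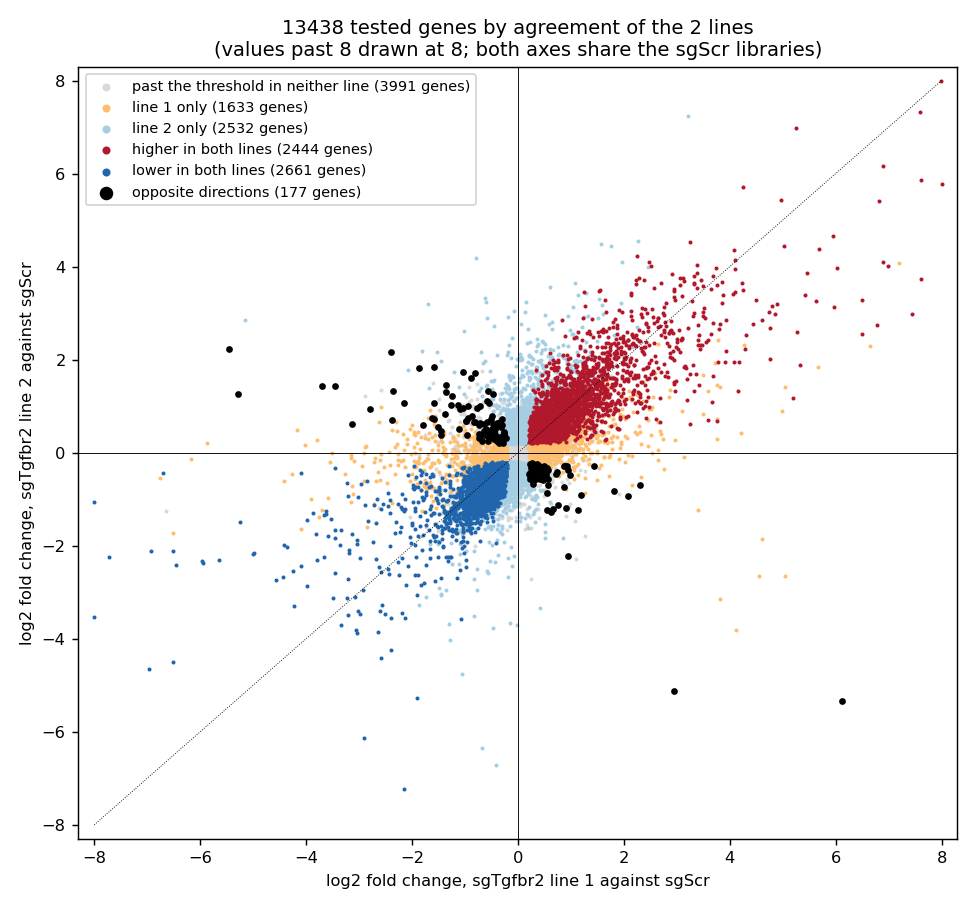
Log2 fold change of each of the 13438 tested genes in line 1 (x axis) and line 2 (y axis) against the same sgScr libraries, coloured by which tests it passed. Red and blue genes (2444 and 2661) pass in both lines in one direction, and the 177 black genes pass in opposite directions.

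Genes of some chromosomes were shifted together between the groups, and they enter the counts above; this was looked at after the values were seen. Genes of chromosome 5 had a median log2 fold change of 0.42 in line 1 and 0.05 in line 2, and 434 of 849 were lower in line 2 than in line 1 (51.1%, against 10.8% of the genes outside chromosomes 1, 5, 14 and Y). Library medians on chromosome 5 were 0.373 and 0.371 in line 1 and -0.010 and -0.014 in line 2, and all 8 of its 20 Mb windows were past 0.3 in line 1. On chromosome 1 both lines shifted alike: the windows from 40 to 80 Mb had medians of -0.36 and -0.59 in line 1 and -0.26 and -0.44 in line 2, and those from 120 Mb to the end lay between 0.49 and 0.69 in line 1 and between 0.585 and 0.83 in line 2. The start of chromosome 14 (the first 2 windows) was higher in line 2 only, with medians of 0.49 and 0.41 against -0.043 and -0.025 in line 1.

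The agreement counts carry these shifts. On chromosome 1, 269 of 733 genes (36.7%) were higher in both lines, against 16.4% outside chromosomes 1, 5, 14 and Y. The 4 genes of chromosome Y that were tested, Ddx3y, Eif2s3y, Kdm5d and Uty, fell in line 2 (median -1.65), and all 4 were lower in line 2 than in line 1, where the median was -0.10. Beyond these chromosomes, 3 windows lay past 0.3: X from 120 to 140 Mb in line 1 (-0.393, against -0.044 in line 2), which holds Bex1, and the last windows of chromosomes 8 and 11 in line 2 (-0.322 and -0.319, against -0.209 and -0.167 in line 1). Library medians on the 17 remaining chromosomes lay between -0.154 and 0.035 in the sgTgfbr2 libraries and between -0.065 and 0.067 in sgScr. DNA copy number was not measured, and the part of these chromosome-wide shifts in single genes was not tested. With chromosomes 1, 5, 14 and Y left out, 107 opposite genes were called.

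**Figure D3:**
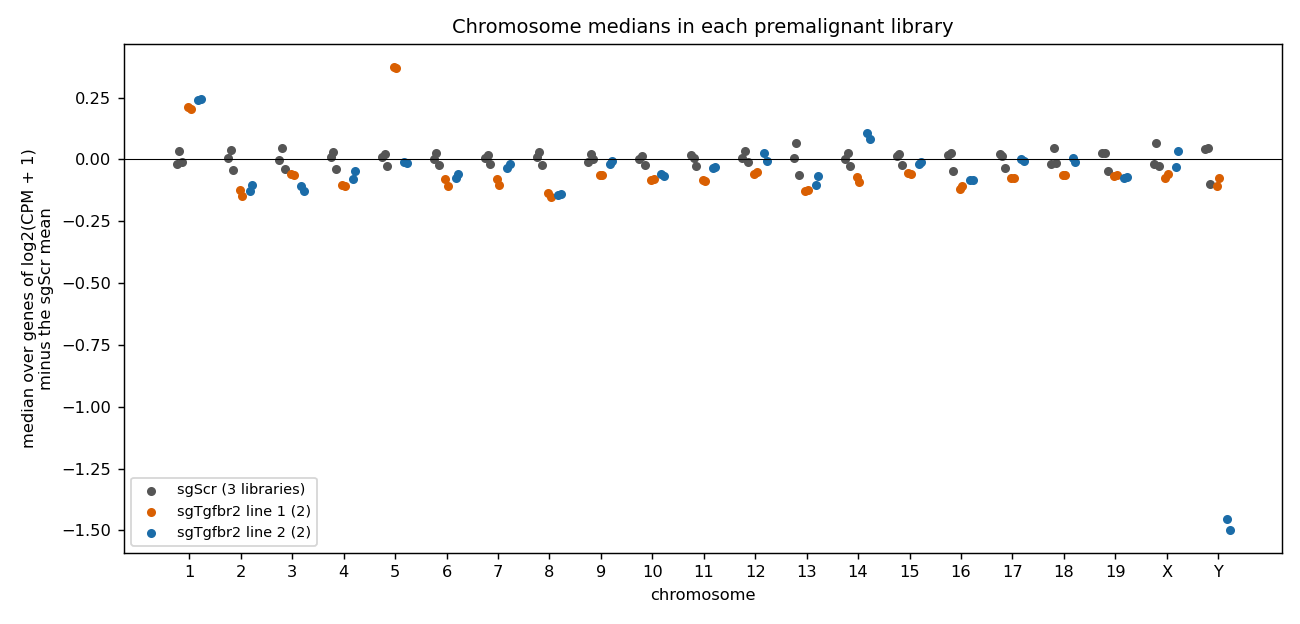
Median over genes, per chromosome and library, of log2(CPM + 1) minus the mean of the sgScr libraries (for an sgScr library, of the other 2), for genes with a mean of at least 5 CPM. Chromosome 5 stands high in both line 1 libraries (0.373 and 0.371), chromosome 1 stands high in all 4 sgTgfbr2 libraries, and the 4 chromosome Y genes stand low in both line 2 libraries.

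The 15 genes that rose furthest in both lines, ranked by the smaller of their changes in the lines, included Ltbp2, Lcn2, Nos2 and Steap4. Ltbp2 (chr12:84783212-84876532, GRCm38) encodes a matrix protein named after the latent TGF-beta binding proteins, and its binding to the ligand was not measured. The gene was at 0.721, 0.632 and 0.767 in sgScr, 45.5 and 42.9 in line 1, and 20.2 and 15.5 in line 2. Its log2 fold change was 5.96 ± 0.18 in line 1 and 4.66 ± 0.19 in line 2. Lcn2, an iron-sequestering antibacterial protein, was at 2.52, 1.12 and 5.42 in sgScr, 317 and 398 in line 1, and 54.6 and 48.3 in line 2, and the rise was smaller in line 2 (difference -2.79 ± 0.25, adjusted p = 2.7e-06). The same order held for Nos2, the inducible nitric oxide synthase (1.503, 0.778 and 1.74 in sgScr, 58.9 and 72.9 in line 1, and 13.6 and 11.6 in line 2), and for Steap4, a metalloreductase on chromosome 5 (1.503, 2.24 and 2.15 in sgScr, 115 and 135 in line 1, and 19.7 and 14.7 in line 2). In all 4 genes the groups did not overlap, as for 24.5% of all genes in this direction, and line 1 stood above line 2.

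In other genes of this set the lines lay closer together. Slc39a4, the zinc importer ZIP4, was at 12.1, 10.98 and 13.6 in sgScr, 143 and 171 in line 1, and 176 and 164 in line 2, a log2 fold change of 3.68 ± 0.11 in line 1 and 3.798 ± 0.11 in line 2. Id1, an inhibitor of basic helix-loop-helix factors and a BMP target, was at 25.1, 25.4 and 20.2 in sgScr, 237 and 225 in line 1, and 205 and 245 in line 2. The difference between the lines did not pass the test for either gene (0.11 and -0.04, adjusted p = 0.48 and 0.83). The lines did differ in 2 others: Gabrp, a GABA receptor subunit of epithelia, rose by 2.96 ± 0.11 and 3.27 ± 0.11, and Nfatc2, a calcium- and calcineurin-dependent transcription factor, by 4.09 ± 0.25 and 3.45 ± 0.26. The further genes of this set were Duox2, a hydrogen peroxide-producing oxidase, Plekhs1, Psors1c2, Spn, Rgl3, Olfml2b (on chromosome 1) and Lypd2, and their log2 fold changes without Lypd2 ran from 2.94 to 4.89 in line 1 and up to 4.03 in line 2. Lypd2 rested on 2, 4 and 0 counts in sgScr against 423 and 365 in line 1 and 26 and 30 in line 2.

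The 15 genes that fell furthest in both lines, ranked in the same way, included Epgn, Gsta1 and Krt13. Epgn, which encodes the EGF receptor ligand epigen, was at 17.6, 21.5 and 20 in sgScr, 1.97 and 2.21 in line 1, and 1.92 and 2.701 in line 2, a log2 fold change of -3.23 ± 0.20 in line 1 and -3.12 ± 0.19 in line 2. Epgn lies on chromosome 5. Gsta1, a glutathione S-transferase with close paralogs, was at 190.3, 193 and 179 in sgScr, 23.9 and 22.5 in line 1, and 14.8 and 21.03 in line 2. Krt13, the suprabasal keratin of esophageal epithelium, was at 152, 146 and 120.2 in sgScr, 6.34 and 5.36 in line 1, and 18.7 and 23.2 in line 2, and fell further in line 1 (difference 1.83 ± 0.17, adjusted p = 3.3e-06). The lines did not differ past the threshold in Epgn and Gsta1. No sgTgfbr2 library reached the lowest sgScr library in any of the 3 genes, as for 26.4% of all genes.

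Tbx2, Axin2 and Nrp1 were in the same set. Tbx2, a T-box repressor, was at 31.3, 32.9 and 29.5 in sgScr, 1.92 and 2.504 in line 1, and 9.698 and 8.68 in line 2. Axin2, a Wnt feedback gene, was at 11.5, 10.4 and 9.82 in sgScr, 4.21 and 2.74 in line 1, and 3.44 and 2.701 in line 2. The semaphorin and VEGF co-receptor gene Nrp1, in the last window of chromosome 8, was at 22.6, 20.9 and 21.5 in sgScr, 6.39 and 7.22 in line 1, and 6.84 and 6.75 in line 2. Nrp1 fell by the same amount in both lines (-1.67 ± 0.14 and -1.67 ± 0.14), while Tbx2 fell less in line 2 (-1.76 ± 0.13) than in line 1 (-3.82 ± 0.17). The set also held Cntn1, Teddm3, Adh7, Dynap, Mgst2, Grwd1 and the keratin genes Krt6a, Krt6b and Krt16, which are described with their groups.

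The gene lists that follow are read against all genes tested, of which 18.2% were higher in both lines and 19.8% lower in both. All 4 sgTgfbr2 libraries lay above every sgScr library in 24.5% of all genes and below every one in 26.4%. Named list members were mostly chosen for the smallest pooled p, so separation of the groups in them is no result of its own. The shares of the cornified envelope, squamous and columnar fate, desmosome, Notch, Wnt and mitosis lists lay within 10 percentage points of both, so their counts are no result about those lists. Among TGF-beta receptors, SMADs and co-receptors, 9 of 21 tested members were higher in both lines, 1 was lower in both, which was Tgfbr2 itself, and none was opposite. The type I receptor gene Tgfbr1 was at 32.2, 31.5 and 35.9 in sgScr, 71.995 and 75.2 in line 1, and 65.2 and 61.6 in line 2, a log2 fold change of 1.15 ± 0.09 in line 1 and 0.93 ± 0.09 in line 2. The co-receptor gene Tgfbr3 (betaglycan, on chromosome 5) was at 6.37, 5.93 and 6.65 in sgScr, 21.8 and 22.7 in line 1, and 20.5 and 17.9 in line 2. Smad3 was at 95.3, 87.2 and 106 in sgScr, 166 and 173 in line 1, and 206 and 171 in line 2 (0.82 ± 0.10 in line 1 and 0.97 ± 0.10 in line 2; adjusted p = 1.4e-05 and 2.2e-06). Receptor and SMAD3 transcripts thus moved against Tgfbr2, and all 4 sgTgfbr2 libraries exceeded every sgScr library in these 3 genes.

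Smad2 (70.3 in sgScr, 64.8 in line 1 and 62.8 in line 2) passed in neither line, and Smad4 (119 in sgScr, 127 in line 1 and 147 in line 2) passed in line 2 only. The inhibitory SMAD genes rose in both lines, Smad6 by 0.68 ± 0.13 and 1.08 ± 0.12 and Smad7 by 0.45 ± 0.14 and 0.65 ± 0.14. Tgif1, a SMAD co-repressor, rose by 0.38 ± 0.09 and 0.49 ± 0.09. These are transcript levels; SMAD phosphorylation was not measured.

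Of 18 tested TGF-beta ligand and latent-form genes, 8 rose in both lines and none fell in both. Tgfb1 was at 113, 125 and 136 in sgScr, 195 and 201 in line 1, and 215 and 191 in line 2. The latent-binding genes Ltbp3 and Ltbp4 rose with Ltbp2, by 0.66 ± 0.10 and 0.64 ± 0.11 in line 1 and 0.79 ± 0.10 and 1.46 ± 0.11 in line 2. Itgb6, which encodes the beta-6 chain of the integrin that releases the ligand, was at 14.5, 14.9 and 17.5 in sgScr, 31.5 and 31.7 in line 1, and 27.5 and 29.8 in line 2. Tgfb2, on chromosome 1, was at 3.13, 3.64 and 4.91 in sgScr, 18.5 and 17.4 in line 1, and 12.7 and 6.75 in line 2. The genes named so far in this list were higher in both lines, while Tgfb3 went opposite ways (2.89, 2.04 and 2.404 in sgScr, 1.44 and 1.34 in line 1, and 7.87 and 7.98 in line 2). A further 5 members passed in line 2 only, 3 of them lower, and 4 passed in neither.

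TGF-beta target genes did not share one direction. Of 26 tested, 7 were higher in both lines, 1 was lower in both, 2 were opposite and 9 passed in neither. Ctgf, a matricellular gene that is also a YAP target, was at 4.57, 5.15 and 8.24 in sgScr, 28.3 and 38.8 in line 1, and 31.9 and 27.98 in line 2. The cell cycle inhibitor genes Cdkn2b and Cdkn1c rose by 0.88 ± 0.10 and 0.92 ± 0.12 in line 1 and 0.96 ± 0.10 and 1.205 ± 0.12 in line 2. Tgfbi, whose name comes from its induction by TGF-beta, fell in line 1 and rose in line 2 (46.8, 46.8 and 62.4 in sgScr, 19.2 and 18.6 in line 1, and 74.6 and 68.1 in line 2).

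Of 23 tested BMP pathway and Id genes, 8 rose in both lines and 1 fell in both, or none without line 1 replicate 2. Id2 was at 41.5, 48.5 and 41.9 in sgScr, 138 and 129 in line 1, and 124 and 134 in line 2. Id3 was at 43.3, 43.9 and 43.1 in sgScr, 152 and 141 in line 1, and 214 and 226 in line 2. Id3 rose further in line 2 (difference 0.58 ± 0.09, adjusted p = 2.5e-04), while Id1 and Id2 did not differ between the lines past the threshold. Atoh8, a further BMP-responsive gene, had 0, 1 and 0 counts in sgScr, 16 and 17 in line 1 and 60 and 54 in line 2. The SMAD1 and SMAD5 genes, whose products carry the BMP signal, passed in neither line. Smad1 had group means of 52.9 in sgScr, 58.2 in line 1 and 61.6 in line 2, and Smad5 of 92.5 in sgScr, 80.7 in line 1 and 91.4 in line 2. Noggin was listed in the medium of all groups.

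The promoter of Id2 is printed because Id2 rose to a like level in both lines, as did Id1, and BMP-activated SMADs are known to bind GC-rich sites. It covers 250 bases before to 50 after the start (chr12:25096043-25096342, GRCm38.p6, minus strand, RefSeq), written 5′ to 3′, with GGCGCC in capitals, the letters searched for on both strands.
Id2: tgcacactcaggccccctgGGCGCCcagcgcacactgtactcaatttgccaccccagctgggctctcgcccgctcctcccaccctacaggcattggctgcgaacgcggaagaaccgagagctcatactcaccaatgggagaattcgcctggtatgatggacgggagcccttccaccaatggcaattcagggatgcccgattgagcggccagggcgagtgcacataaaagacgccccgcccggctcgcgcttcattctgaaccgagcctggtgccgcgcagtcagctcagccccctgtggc
The match began 231 bases before the start site. These letters were in 5 of 14 promoters of the BMP list (35.71%) and in 22.26% of the promoters of all 8132 tested genes with a single window, so most of the list lacked them in this window.

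Keratin genes fell together in the stress and wound class. All 4 tested members were lower in both lines, where 19.8% of all genes were. Krt6a was at 2322, 2525 and 2608 in sgScr, 637 and 603 in line 1, and 838 and 843 in line 2. Krt16, its type I partner in wounded epithelium, was at 283, 356 and 292 in sgScr, 78.4 and 68.5 in line 1, and 61.1 and 54.1 in line 2. Krt17 was at 4065, 4318 and 3940.4 in sgScr, 2175 and 2142 in line 1, and 2468 and 2445 in line 2. In each of these genes the highest sgTgfbr2 library lay below the lowest sgScr library, as for 26.4% of all genes. Krt6a and Krt6b are close paralogs, and the counting used is not given in the sources used here, so reads may have been split between them.

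Of 8 tested basal and suprabasal squamous keratins, 6 fell in line 1, 4 of them in both lines, and none rose in both. By the test of the difference, 6 were higher in line 2 than in line 1 (13.2% of all genes were). Krt14, the basal type I keratin, was at 2719, 3118 and 2693 in sgScr, 819 and 754 in line 1, and 1071 and 1149 in line 2. Its partner Krt5 fell in line 1 only (6427, 6311 and 6695 in sgScr, 4062 and 3920.3 in line 1, and 6191 and 6137 in line 2). Krt4, the type II partner of Krt13, fell in line 1 and rose in line 2 (40.6, 32.8 and 34.8 in sgScr, 21.5 and 22.2 in line 1, and 59.5 and 52.2 in line 2).

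Of 6 simple epithelial keratins, 3 were higher in both lines, 1 was opposite and 1 passed in each line alone. Krt7, typical of glandular epithelium, was at 95.9, 75.9 and 102 in sgScr, 843 and 834 in line 1, and 194 and 206 in line 2. Krt19 was at 1228, 1206 and 1423 in sgScr, 1754 and 1904 in line 1, and 1963 and 2142 in line 2. Krt23 was at 4.45, 2.62 and 4.35 in sgScr, 23.7 and 25.3 in line 1, and 22.3 and 21.2 in line 2. The rise of Krt7 was larger in line 1 (difference -2.07 ± 0.12), and those of Krt19 and Krt23 did not differ past the threshold. Krt8 was opposite, higher in line 1 and lower in line 2 (214, 194 and 214 in sgScr, 411 and 391 in line 1, and 159 and 164 in line 2). Krt18, its partner, passed in line 2 only, in which it was higher (671 in sgScr, 752 in line 1 and 1002 in line 2), and Krt20 in line 1 only, in which it was lower (11.05 in sgScr, 3.19 in line 1 and 8.44 in line 2).

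Factors of squamous and columnar fate split evenly, with 5 of 20 higher and 5 lower in both lines. Trp63, the master regulator of squamous epithelium, was at 259.9, 264 and 283 in sgScr, 359.5 and 367 in line 1, and 396 and 359 in line 2, higher in both lines. Pitx1 (624 in sgScr, 437 in line 1 and 396 in line 2) and Foxe1 (34.8 in sgScr, 22.3 in line 1 and 18.5 in line 2) fell in both lines. The ETS factor genes Elf3 (on chromosome 1) and Ehf and the pioneer factor gene Foxa1 rose in both lines, with log2 fold changes in line 1 of 1.59 ± 0.13, 0.48 ± 0.07 and 0.89 ± 0.09. Without line 2 replicate 2, 3 rather than 5 of the list fell in both lines.

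Cornified envelope genes, which build the barrier of the outermost squamous layers, gave no common direction: 5 of 27 rose in both lines, 6 fell in both, 3 were opposite and 6 passed in neither. Without line 1 replicate 2 the first 2 counts were 3 and 3. Evpl, the gene for the cornified envelope protein envoplakin, was at 81.5, 76.004 and 85.1 in sgScr, 120.4 and 116 in line 1, and 203 and 191 in line 2. Klk10, a kallikrein protease gene, was at 30.4, 33.2 and 31.3 in sgScr, 9.43 and 10.5 in line 1, and 17.5 and 20.5 in line 2. Evpl thus rose and Klk10 fell in both lines. Sprr2d was at 1.56, 1.17 and 2.404 in sgScr, 63.2 and 75.2 in line 1, and 5.85 and 7.01 in line 2. Sprr2a3 was at 68.3, 65.3 and 70.5 in sgScr, 32.7 and 32.4 in line 1, and 40.4 and 40.8 in line 2. Both belong to the Sprr2 family of near-identical genes, so their counts are uncertain. Sprr1b went opposite ways: 27.7, 30.9 and 35.6 in sgScr, 7.99 and 6.06 in line 1, and 62.8 and 68.1 in line 2, with log2 fold changes of -2.16 ± 0.15 in line 1 and 1.06 ± 0.12 in line 2.

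The Sprr1b promoter is printed because it is the cornified envelope gene in which the lines disagree most among those named as opposite (chr3:92438730-92439029, GRCm38.p6, minus strand, RefSeq), with TGANTCA, the AP-1 site searched for on both strands, in capitals.
Sprr1b: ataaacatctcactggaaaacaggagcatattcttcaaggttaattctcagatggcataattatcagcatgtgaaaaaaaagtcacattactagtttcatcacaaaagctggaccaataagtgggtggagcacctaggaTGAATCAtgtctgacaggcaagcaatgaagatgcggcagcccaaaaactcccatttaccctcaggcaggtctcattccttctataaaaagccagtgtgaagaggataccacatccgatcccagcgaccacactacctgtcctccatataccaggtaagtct
The match began 111 bases before the start. These letters were in 11 of 19 cornified envelope promoters (57.89%) and in 5.04% of all 8132, and they are thus shared by promoters of genes that did not move together.

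Most tight junction genes rose in both lines. Of 20 tested, 14 were higher in both, 1 was lower in both and none was opposite. Cldn4, a sealing claudin, was at 104, 88.8 and 123 in sgScr, 464 and 497 in line 1, and 394 and 377 in line 2. Cldn3 was at 17.9, 16.2 and 25.5 in sgScr, 241 and 269 in line 1, and 142 and 132 in line 2; both lie on chromosome 5. Away from chromosome 5, Cldn7 was at 86.99, 85.8 and 85.8 in sgScr, 192 and 188 in line 1, and 174 and 188 in line 2. Tjp3, which encodes the scaffold ZO-3, was at 9.86, 7.68 and 11.2 in sgScr, 60.9 and 68.5 in line 1, and 57.7 and 56.99 in line 2. Outside chromosome 5 the medians over the list were 0.75 in line 1 and 0.76 in line 2, against 0.77 and 0.81 with it. The polarity gene Pard6b and the junctional adhesion gene F11r rose in both lines as well, F11r lying on chromosome 1.

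Of 17 desmosome and adherens junction genes tested, 4 rose and 2 fell in both lines (23.5% and 11.8%). Both shares lay within 10 percentage points of those over all genes (18.2% and 19.8%). By the test of the difference, 9 members were higher in line 2 than in line 1 (13.2% of all genes were) and none was lower. The desmosomal cadherin genes did not move alike: Dsg2 was at 60.8, 57.2 and 76.6 in sgScr, 98.5 and 98.8 in line 1, and 125 and 117 in line 2. Dsg3 was at 129.5, 129 and 145 in sgScr, 85.4 and 86.4 in line 1, and 106 and 105 in line 2. Dsc3 was at 141, 143 and 147 in sgScr, 22.5 and 21.2 in line 1, and 130.5 and 121 in line 2. Dsg2 thus rose, Dsg3 fell, and Dsc3 was lower in line 1 only. Cdh1, the gene for E-cadherin, rose by 0.34 ± 0.08 and 0.42 ± 0.08. Of 21 integrin, laminin and hemidesmosome genes, 9 rose in both lines. Itga2, the collagen-binding alpha-2 chain, was at 10.6, 9.33 and 16.5 in sgScr, 47.5 and 53.3 in line 1, and 61.6 and 39.4 in line 2. The laminin gene Lama5 was at 255, 191 and 301 in sgScr, 679 and 685 in line 1, and 809.8 and 680.3 in line 2. Lamc1, a laminin gene on chromosome 1, was at 98.1, 78.2 and 106 in sgScr, 223 and 213 in line 1, and 246 and 216 in line 2. All 3 were higher in every sgTgfbr2 library than in every sgScr library, as were 24.5% of all genes, and the lines did not differ past the threshold. Lama3, which encodes the laminin-332 alpha chain, fell in line 1 and rose in line 2 (219.96, 179 and 333 in sgScr, 151 and 172 in line 1, and 408 and 359.7 in line 2). Itgb4, which encodes its hemidesmosomal receptor chain, did the same (568, 517 and 747 in sgScr, 477 and 493 in line 1, and 796 and 745 in line 2).

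Of 11 epithelial-mesenchymal transition genes, 2 rose in both lines (18.2%, the same share as over all genes). A fall in both lines was called for 1 (9.1%, against 19.8% of all genes), or none without either library of line 2 and 2 without sgScr replicate 3. The 2 that rose were the epithelial genes Epcam (564 in sgScr, 977 in line 1 and 764 in line 2) and Esrp1 (205 in sgScr, 249 in line 1 and 236 in line 2). One of them passed without line 1 replicate 1, line 1 replicate 2, line 2 replicate 1 or sgScr replicate 1, each left out in turn. Vim, the mesenchymal intermediate filament gene, passed in line 2 only and had 32, 42 and 24 counts in sgScr, 19 and 14 in line 1 and 13 and 11 in line 2. Of 18 matrix protease, inhibitor and tenascin genes, 8 were higher in both lines and 1 was lower in both. Plau, the gene for urokinase on chromosome 14, was at 38.8, 36.5 and 43.7 in sgScr, 88.2 and 115 in line 1, and 204 and 182 in line 2. Plat, the gene for tissue plasminogen activator, was at 22.3, 23.7 and 26.1 in sgScr, 56.9 and 67.4 in line 1, and 76.6 and 77.2 in line 2.

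Immediate early and ERK feedback genes, which respond to growth factor and stress signals within minutes to hours, rose in both lines for 18 of 29 and fell in both for 1, the AP-1 subunit gene Fosl1, which did not pass without line 1 replicate 2 or line 2 replicate 2. Egr1, a zinc finger factor, was at 231, 246 and 263 in sgScr, 668 and 658 in line 1, and 796 and 672 in line 2. Dusp4, an ERK phosphatase, was at 46.6, 42.7 and 55.3 in sgScr, 137 and 161 in line 1, and 148 and 143 in line 2. Fosl2, on chromosome 5, was at 94.2, 87.3 and 108 in sgScr, 201 and 208 in line 1, and 207 and 181 in line 2. In all, 6 of the 29 members passed in neither line, among them the ERK feedback genes Spry1, Spred1, Etv4 and Etv5. These 4 were named after their values were seen.

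YAP and TAZ target genes rose in both lines for 16 of 23 and fell in both for 1 (Fjx1), with median log2 fold changes of 0.68 in line 1 and 0.78 in line 2, where the medians over all genes were -0.03 and 0.01. Cyr61 was at 123, 114 and 154 in sgScr, 312 and 359 in line 1, and 379.6 and 332 in line 2. Ptpn14, on chromosome 1, was at 42.7, 35.3 and 50.2 in sgScr, 129.8 and 126 in line 1, and 146 and 118 in line 2. Axl, a receptor tyrosine kinase gene, was at 313, 295 and 417 in sgScr, 643 and 662 in line 1, and 838 and 772 in line 2. The groups did not overlap in these 3 genes, as for 24.5% of all genes in this direction, and the lines did not differ past the threshold. Ankrd1, a muscle and wound response gene, had 1, 0 and 0 counts in sgScr against 77 and 93 in line 1 and 27 and 26 in line 2. Igfbp3 was the one opposite member (392, 396 and 375 in sgScr, 574 and 561 in line 1, and 217 and 209 in line 2). The letters GGAATG, a TEAD site searched for on both strands, were in 6 of 15 promoters of the list (40.0%) and in 12.0% of all 8132. Promoters of genes higher in both lines held them in 13.18%. The list consists of known targets, so its share is no independent result.

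Among EGF-family ligands and receptors, the receptor genes named here rose and ligands divided. Egfr was at 86.6, 77.4 and 101 in sgScr, 155 and 166 in line 1, and 262 and 234 in line 2. Erbb3 was at 55.005, 42.2 and 71.7 in sgScr, 101 and 101 in line 1, and 129.96 and 118 in line 2. Erbb2 was at 41.8, 37.9 and 39.6 in sgScr, 64.4 and 57.2 in line 1, and 58.7 and 56.1 in line 2. These 3 receptor genes rose in both lines, and Errfi1, a feedback inhibitor of these receptors, rose by 0.77 ± 0.11 and 0.97 ± 0.11. Areg (amphiregulin) fell with Epgn (25.9, 29.2 and 28.3 in sgScr, 15.1 and 17.1 in line 1, and 14.03 and 13.8 in line 2). Ereg (epiregulin) instead rose in line 1 and fell in line 2 (48.6, 55.6 and 44.5 in sgScr, 94.2 and 93.5 in line 1, and 39.4 and 42.3 in line 2). Areg, Ereg and Epgn lie on chromosome 5. In all, 5 of 14 rose in both lines, 3 fell in both and 1 was opposite. With chromosomes 1, 5, 14 and Y left out, 1 member fell in both.

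NF-kB subunit, feedback and inflammatory genes rose in both lines for 21 of 34, fell in both for 1 (none without line 1 replicate 2) and were lower in line 2 than in line 1 for 26, where 13.1% of all genes were. Nfkbia, the feedback inhibitor, was at 278, 265 and 302 in sgScr, 579.9 and 566 in line 1, and 498 and 496 in line 2. Il1a was at 13.9, 10.9 and 15.7 in sgScr, 94.1 and 109 in line 1, and 53.8 and 57.1 in line 2. Tnf was at 18.5, 15.1 and 17.7 in sgScr, 71.1 and 69.4 in line 1, and 38.9 and 37.4 in line 2. Both encode inflammatory cytokines. Cxcl1, a neutrophil chemokine gene, was at 109.6, 110.4 and 140.2 in sgScr, 679.6 and 662 in line 1, and 252 and 223 in line 2. In each of these genes the groups did not overlap, as for 24.5% of all genes in this direction. Line 1 was highest and line 2 lay between line 1 and sgScr.

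The list holds the 5 subunit genes of NF-kB. Rel rose in both lines (8.33 in sgScr, 15.2 in line 1 and 16.7 in line 2). Nfkb1 was higher in line 1 only (112 in sgScr, 134 in line 1 and 100.5 in line 2), as were Nfkb2 (142 in sgScr, 176 in line 1 and 159.6 in line 2) and Relb (51.9 in sgScr, 81.6 in line 1 and 60.3 in line 2). Rela was lower in line 2 only (98.7 in sgScr, 91.1 in line 1 and 69.6 in line 2). Outside chromosome 5, on which Cxcl1 lies, 23 of the 30 tested members were lower in line 2 than in line 1 and none was higher, with medians of 1.03 in line 1 and 0.52 in line 2. Ptgs2, the gene for cyclooxygenase 2 on chromosome 1, was higher in line 1 and lower in line 2 (82.8, 77.6 and 79.1 in sgScr, 92.9 and 102 in line 1, and 69.9 and 59.6 in line 2).

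The promoters of Nfkbia and Cxcl1 are printed as a feedback gene and a chemokine gene of this list (GRCm38.p6, RefSeq, chr12:55492598-55492897 on the minus strand and chr5:90890995-90891294 on the plus strand). Capitals mark an NF-kB site on either strand, spelled GGG, then any 2 bases, then TTTCC.
Nfkbia: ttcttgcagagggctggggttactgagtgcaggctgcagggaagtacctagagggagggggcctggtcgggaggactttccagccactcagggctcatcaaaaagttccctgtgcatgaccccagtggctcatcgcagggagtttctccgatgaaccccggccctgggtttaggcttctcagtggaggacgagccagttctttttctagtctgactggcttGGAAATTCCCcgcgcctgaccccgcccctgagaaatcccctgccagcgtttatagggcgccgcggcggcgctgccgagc
Cxcl1: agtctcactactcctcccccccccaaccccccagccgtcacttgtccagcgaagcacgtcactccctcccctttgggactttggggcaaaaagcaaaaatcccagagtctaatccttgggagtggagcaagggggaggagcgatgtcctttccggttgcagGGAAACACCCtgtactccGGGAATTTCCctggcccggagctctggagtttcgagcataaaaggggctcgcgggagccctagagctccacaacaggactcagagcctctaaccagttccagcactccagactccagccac
Nfkbia had 1 match, beginning 29 bases before the start, and Cxcl1 had 2, beginning 89 and 71 bases before it. These letters were in 7 of 23 promoters of the list (30.43%) and in 1.70% of all 8132, while the promoters of genes higher in both lines held them in 2.88%. The list consists of known targets, so its share is no independent result.

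Innate defence genes rose in both lines for 14 of 18, with medians of 2.80 in line 1 and 1.86 in line 2. By the test of the difference, 9 were lower in line 2 than in line 1, where 13.1% of all genes were. The complement gene C3 was at 68.5, 62.5 and 105 in sgScr, 486 and 595 in line 1, and 484 and 395 in line 2. Ltf, the gene for lactotransferrin, was at 30.8, 25.5 and 32.99 in sgScr, 225 and 234 in line 1, and 118 and 119.6 in line 2. Duoxa2, the maturation factor of Duox2, had 2, 9 and 4 counts in sgScr, 192 and 232 in line 1 and 79 and 68 in line 2. Pigr, the gene for the polymeric immunoglobulin receptor on chromosome 1, had no count in sgScr and was at least 32.1-fold higher in line 1 and 33.4-fold higher in line 2, against 3 counts over the sgScr group. Neutrophils also express Lcn2 and Ltf. The immune markers Lyz2 and Tyrobp, which neutrophils carry, were listed at 0 in every library, but so were Oaz1 and Amd1, which nearly all cells use, so a listed 0 in this table need not mean that a gene was silent.

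Interferon-stimulated genes gave no single direction, with 10 of 26 higher and 4 lower in both lines. Cxcl10 was at 1.14, 1.07 and 1.43 in sgScr, 6.71 and 7.57 in line 1, and 9.39 and 9.13 in line 2. Irf1, a factor that NF-kB also induces, was at 40.8, 43.1 and 48.95 in sgScr, 137 and 139 in line 1, and 81.2 and 77.4 in line 2. Both rose in both lines. Ifit2 fell in both lines (6.55, 8.84 and 6.803 in sgScr, 1.39 and 1.34 in line 1, and 1.21 and 1.22 in line 2), as did Oas1a (2.71, 3.21 and 3.38 in sgScr, 0.639 and 0.874 in line 1, and 0.6704 and 1.16 in line 2). Cxcl10 and Oas1a both lie on chromosome 5. Without chromosomes 1, 5, 14 and Y, 2 members fell in both lines.

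Ribosome biogenesis genes fell in both lines almost without exception. Of 34 tested nucleolar and MYC target genes, 33 were lower in both lines, where 19.8% of all genes were, and the other one, Npm1, was lower in line 1 only (1813, 2006 and 1495 in sgScr, 1449 and 1365 in line 1, and 1677 and 1936 in line 2). Nop58, a box C/D snoRNP core protein gene in the part of chromosome 1 that stood low in both lines, was at 427, 443 and 329.6 in sgScr, 186 and 165 in line 1, and 154 and 176 in line 2. Of the list, 5 members lie on chromosome 1. Rrp9 was at 94.7, 101 and 69.8 in sgScr, 39.5 and 33.1 in line 1, and 29.99 and 32.3 in line 2. Grwd1, a WD-repeat protein of ribosome assembly and the member that fell furthest, was at 72.3, 77.4 and 50.1 in sgScr, 24.99 and 19.97 in line 1, and 18.4 and 17.04 in line 2. Median log2 fold changes over the list were -0.77 in line 1 and -0.95 in line 2. Replicate 3 was the lowest of the sgScr libraries in Npm1, Nop58, Rrp9 and Grwd1, and so lay nearest to sgTgfbr2 in the last 3. Myc itself was not lower in either line.

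The promoter of Grwd1 is printed with CACGTG, the E-box that MYC is known to bind, in capitals (chr7:45830740-45831039, GRCm38.p6, minus strand, RefSeq).
Grwd1: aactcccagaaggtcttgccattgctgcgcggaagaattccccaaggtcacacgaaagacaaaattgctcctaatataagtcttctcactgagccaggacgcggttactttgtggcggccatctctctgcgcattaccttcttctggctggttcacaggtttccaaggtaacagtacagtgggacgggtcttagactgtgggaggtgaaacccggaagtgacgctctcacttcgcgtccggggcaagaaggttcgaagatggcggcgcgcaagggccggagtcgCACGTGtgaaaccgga
The match began 35 bases after the start. These letters were in 7 of 27 promoters of the list (25.93%) and in 10.38% of all 8132. Promoters of genes lower in both lines held them in 11.91%. The list was chosen to hold known MYC targets, so its share is no independent result. The part of MYC in the fall was not tested.

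Polyamine synthesis genes included 2 large falls: Odc1, the rate-limiting enzyme, was at 989, 1103 and 913 in sgScr, 429 and 417 in line 1, and 314 and 309 in line 2. Srm, spermidine synthase, was at 271, 275 and 219 in sgScr, 117 and 114 in line 1, and 98.1 and 104 in line 2. Of 8 tested, 4 fell and 2 rose in both lines, and without any one library of line 1 or of line 2 these counts were 2 and 1. The second count was also 1 without sgScr replicate 1. Smox, which oxidizes spermine, rose (117, 109 and 147 in sgScr, 271 and 285 in line 1, and 214 and 195 in line 2). The synthesis genes Odc1 and Srm and the oxidase gene Smox thus moved in different directions, alike in both lines.

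DNA replication and G1/S genes fell in both lines for 24 of 37, and none rose in both. Mcm5, a subunit of the replicative helicase, was at 166, 171 and 149.9 in sgScr, 83.7 and 80.2 in line 1, and 74.7 and 80.8 in line 2. Ccne1, the gene for cyclin E1, was at 65.3, 71.4 and 57.2 in sgScr, 34.1 and 34.4 in line 1, and 32.98 and 35.2 in line 2. Fen1, a flap endonuclease, was at 110.1, 126 and 90.9 in sgScr, 61.8 and 53.5 in line 1, and 42.5 and 51.4 in line 2. All 3 fell in both lines, which did not differ past the threshold. Pcna, the sliding clamp, fell from 374, 420.1 and 311 in sgScr to 232 and 216 in line 1 and 157 and 185 in line 2, further in line 2 (adjusted p = 0.034).

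Mitosis and spindle genes gave no common direction. Of 38 tested, 6 rose and 6 fell in both lines, and 12 passed in line 1 only, where 12.2% of all genes did. By the test of the difference, 23 were higher in line 2 than in line 1 (13.2% of all genes were) and none was lower. Birc5 (survivin) was at 129, 149 and 103 in sgScr, 77.6 and 73.7 in line 1, and 67.4 and 71.8 in line 2, lower in both lines. Cenpf, a kinetochore gene, rose to 139 and 128 in line 1 and 161 and 163 in line 2 from 79.9, 78.7 and 74.3 in sgScr. Aspm, a spindle pole gene, was at 39.8, 38.5 and 42.9 in sgScr, 62.2 and 62.4 in line 1, and 96.8 and 99.4 in line 2. Anln, the gene for anillin of the cleavage furrow, was at 313, 338 and 333 in sgScr, 462 and 494 in line 1, and 638 and 648 in line 2. These 3 rose in both lines and further in line 2. Cenpf and Aspm lie on chromosome 1, and with chromosomes 1, 5, 14 and Y left out 2 members rose in both lines. The share of cells in each phase cannot be read from bulk RNA.

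Amino acid and integrated stress response genes fell in both lines for 23 of 42 and rose in both for 2. The test of the difference called 19 lower in line 2 than in line 1, where 13.1% of all genes were. Atf4, the central factor of the response, was at 420.1, 479 and 386 in sgScr, 278 and 252 in line 1, and 204 and 217 in line 2. Atf5 was at 68.5, 76.9 and 54.1 in sgScr, 29.04 and 21.1 in line 1, and 15.2 and 18.3 in line 2. Both encode transcription factors of the response. The serine and one-carbon enzyme gene Shmt2 was at 567, 544 and 524 in sgScr, 324 and 302 in line 1, and 296 and 323 in line 2. The tRNA synthetase gene Yars was at 169, 171 and 149.5 in sgScr, 105 and 106 in line 1, and 86.3 and 87.7 in line 2. Asns, asparagine synthetase, was at 298, 334 and 322 in sgScr, 236 and 248 in line 1, and 197 and 234 in line 2. All of these were lower in all 4 sgTgfbr2 libraries than in every sgScr library, as were 26.4% of all genes. Atf4, Atf5 and Yars fell further in line 2. Ddit4 was the opposite member (439.6, 379.8 and 533 in sgScr, 308 and 328 in line 1, and 540.4 and 600.5 in line 2).

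The Asns promoter is printed with TGATGNAA, the ATF4 site known as CARE, in capitals (chr6:7693160-7693459, GRCm38.p6, minus strand, RefSeq).
Asns: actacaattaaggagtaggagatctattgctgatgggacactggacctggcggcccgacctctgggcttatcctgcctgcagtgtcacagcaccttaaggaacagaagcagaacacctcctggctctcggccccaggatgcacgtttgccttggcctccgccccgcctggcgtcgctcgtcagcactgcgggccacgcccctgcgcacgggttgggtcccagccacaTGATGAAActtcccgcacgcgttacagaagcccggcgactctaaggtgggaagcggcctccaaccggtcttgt
The match began 23 bases before the start. These letters were in 12 of 28 promoters of the list (42.86%) and in 2.14% of all 8132, and in 6.40% of those of genes that fell by at least 1 on the log2 scale in both lines. The list consists of known targets.

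Sterol synthesis and oxidative phosphorylation lists held more members lower than higher in both lines. Of 25 sterol synthesis genes, 15 fell in both lines and 2 rose, or 9 fell in both without line 2 replicate 1. Acat2, acetoacetyl-CoA thiolase, was at 256, 256 and 221 in sgScr, 101 and 88.9 in line 1, and 91.9 and 104 in line 2. Idi1 was at 422, 443 and 333 in sgScr, 178 and 166 in line 1, and 156 and 182 in line 2. Of 35 nuclear oxidative phosphorylation genes, 15 fell in both lines and 16 passed in line 2 only. That first count was 8 without line 1 replicate 2 and 27 without sgScr replicate 3. Ndufs1, a complex I subunit, was at 203, 230.2 and 178 in sgScr, 121 and 120.2 in line 1, and 97.2 and 103 in line 2. It lies on chromosome 1, as do 5 of the 35. Sdhc, a complex II subunit gene, rose in both lines and lies there as well.

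Of 29 NRF2 and glutathione genes, 12 fell in both lines and 4 rose. A level in line 2 above line 1 was called for 12, against 13.2% of all genes. Hmox1, heme oxygenase 1, was at 80.4, 79.2 and 114 in sgScr, 35.7 and 35.7 in line 1, and 33.3 and 39.7 in line 2. Pgd, of the pentose phosphate pathway, was at 555, 551 and 471 in sgScr, 303 and 264 in line 1, and 245 and 275 in line 2. Nfe2l2, which encodes NRF2, was at 261, 286 and 250.1 in sgScr, 155 and 161 in line 1, and 224 and 211 in line 2, lower in both lines. Gsr, glutathione reductase, rose instead (553, 500.2 and 488 in sgScr, 823 and 843 in line 1, and 964 and 997 in line 2). Without line 1 replicate 2, 2 rather than 4 members rose in both lines.

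Calcium channel, pump and signalling genes rose in both lines for 15 of 36 and fell in both for 2 (1 without line 2 replicate 2). Atp2b4, a plasma membrane calcium pump gene on chromosome 1, was at 2.28, 1.798 and 1.38 in sgScr, 7.99 and 10.2 in line 1, and 18.01 and 10.3 in line 2. Atp2c2, a secretory pathway pump gene, was at 17.1, 16.04 and 16.1 in sgScr, 51.9 and 47.7 in line 1, and 36.8 and 35.7 in line 2. Itpr1, an intracellular release channel gene, was at 36.5, 32.4 and 42.3 in sgScr, 68.4 and 60.9 in line 1, and 64.4 and 58.6 in line 2. All 3 were higher in every sgTgfbr2 library than in every sgScr library, as were 24.5% of all genes. Voltage-gated channel genes did not move alike. The T-type gene Cacna1g was at 2.16, 1.02 and 2.404 in sgScr, 6.55 and 5.01 in line 1, and 18.5 and 17.4 in line 2. The L-type gene Cacna1c was at 1.32, 0.923 and 1.43 in sgScr, 0.0533 and 0.349 in line 1, and 0.939 and 1.29 in line 2. The auxiliary subunit gene Cacnb1 was at 0.842, 0.583 and 1.07 in sgScr, 2.18 and 3.32 in line 1, and 5.77 and 4.95 in line 2. Cacna1g and Cacnb1 rose in both lines and further in line 2, and Cacna1c fell in line 1 only.

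**Figure D4:**
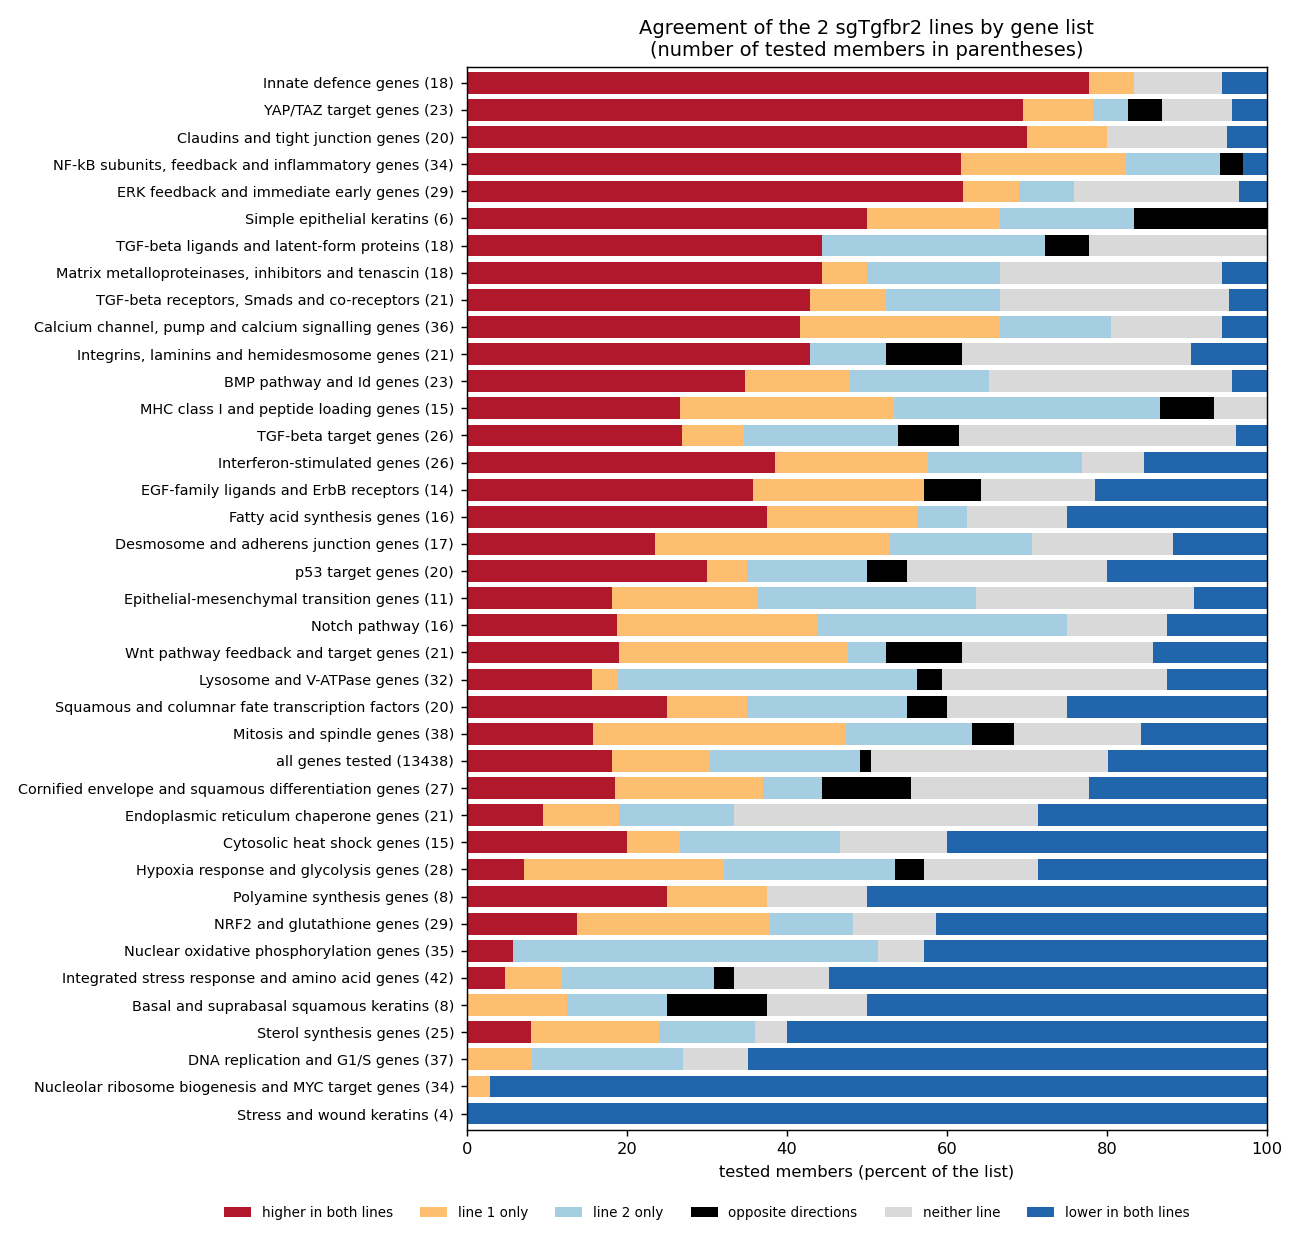
Share of the tested members of each gene list (number in parentheses) that were higher in both lines, lower in both, opposite, past the threshold in 1 line only or in neither, with all 13438 genes tested as a further bar. Innate defence, YAP/TAZ, tight junction, NF-kB and ERK lists have most members higher in both lines, and stress keratins, ribosome biogenesis and DNA replication lists have most members lower in both.

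Genes that the lines moved in opposite directions were led, for line 1 higher, by Rhox4a, Skint3, Hs3st3b1, Apln, Syt16 and Stra6. Rhox4a, a homeobox gene of an X-linked cluster of near-identical copies, had 6, 3 and 6 counts in sgScr, 341 and 335 in line 1 and 0 in both line 2 libraries. Its level was at least 238-fold higher in line 1 than in line 2, against 3 counts over the line 2 group. Apln, the ligand of the apelin receptor, was at 13.4, 10.1 and 9.92 in sgScr, 20.9 and 20.8 in line 1, and 5.32 and 4.31 in line 2. Stra6, a retinol transporter gene, was at 202, 176 and 206 in sgScr, 359.9 and 352 in line 1, and 120.2 and 112 in line 2, with log2 fold changes of 0.87 ± 0.09 in line 1 and -0.74 ± 0.09 in line 2. In Apln and Stra6 the 3 groups formed 3 separate ranges, with sgScr in the middle, and the pooled test called neither (adjusted p = 0.77 and 0.6).

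For line 2 higher, the genes were Rab6b, Bex1, Sprr1b, Wnt5a, Unc5a and Nccrp1. Wnt5a, a non-canonical Wnt ligand in the part of chromosome 14 that stood high in line 2, was at 11.4, 11.3 and 12.6 in sgScr, 1.599 and 1.81 in line 1, and 23.6 and 21.4 in line 2, with log2 fold changes of -2.78 ± 0.18 in line 1 and 0.94 ± 0.13 in line 2. Rab6b, a Golgi transport GTPase gene, was at 11.8, 10.8 and 14.1 in sgScr, 1.71 and 3.09 in line 1, and 29.3 and 32.2 in line 2. Bex1 was at 8.66, 8.94 and 11.8 in sgScr, 3.197 and 3.38 in line 1, and 20.2 and 20.97 in line 2. Nccrp1 was the weakest of them (3.25, 4.03 and 4.71 in sgScr, 2.29 and 2.04 in line 1, and 12.3 and 12.1 in line 2; adjusted p = 0.005 in line 1), and its fall in line 1 did not pass without line 1 replicate 2. The difference between the lines passed for all 12 genes, which were chosen for opposite movement, so this is a description.

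Some genes changed in line 1 only and differed between the lines. Gata4, a factor of gastric and columnar epithelium, was at 2.34, 1.56 and 2.1995 in sgScr, 14.2 and 12.99 in line 1, and 1.61 and 1.54 in line 2. Nr2f2, which encodes COUP-TFII, was at 2.405, 3.21 and 3.07 in sgScr, 19.4 and 18.5 in line 1, and 4.74 and 2.83 in line 2. Inpp4b, a lipid phosphatase gene, and Plch1 rose in line 1 as well. Dsc3, a desmosomal cadherin of squamous epithelium, was at 141, 143 and 147 in sgScr, 22.5 and 21.2 in line 1, and 130.5 and 121 in line 2. Line 2 overlapped or lay next to sgScr in these genes, and line 1 lay apart. Khdrbs3 and Hoxa3 fell in line 1, with log2 fold changes of -3.14 ± 0.28 and -2.95 ± 0.27.

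Other genes changed in line 2 only and differed between the lines. Nid1, which encodes the basement membrane protein nidogen 1, was at 5.95, 4.71 and 7.01 in sgScr, 3.997 and 6.41 in line 1, and 50.1 and 38.5 in line 2. Dapk1, a calmodulin-regulated kinase gene, was at 6.37, 6.46 and 11.9 in sgScr, 6.13 and 8.44 in line 1, and 40.9 and 32.6 in line 2. Both lay within or near the sgScr range in line 1. Mapt and Atp1b2 rose in line 2 by 2.19 ± 0.17 and 1.99 ± 0.23. Il33, an epithelial alarmin, was at 19.5, 17.4 and 17.1 in sgScr, 16.5 and 18.5 in line 1, and 5.09 and 8.17 in line 2. Tyms, thymidylate synthase, was at 64.7, 70.5 and 52.2 in sgScr, 53.7 and 48.04 in line 1, and 19.7 and 22.1 in line 2, and lies on chromosome 5. Uty is one of the 4 chromosome Y genes, and Tbc1d9 had a log2 fold change of -1.62 ± 0.18 in line 2.

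**Figure D5:**
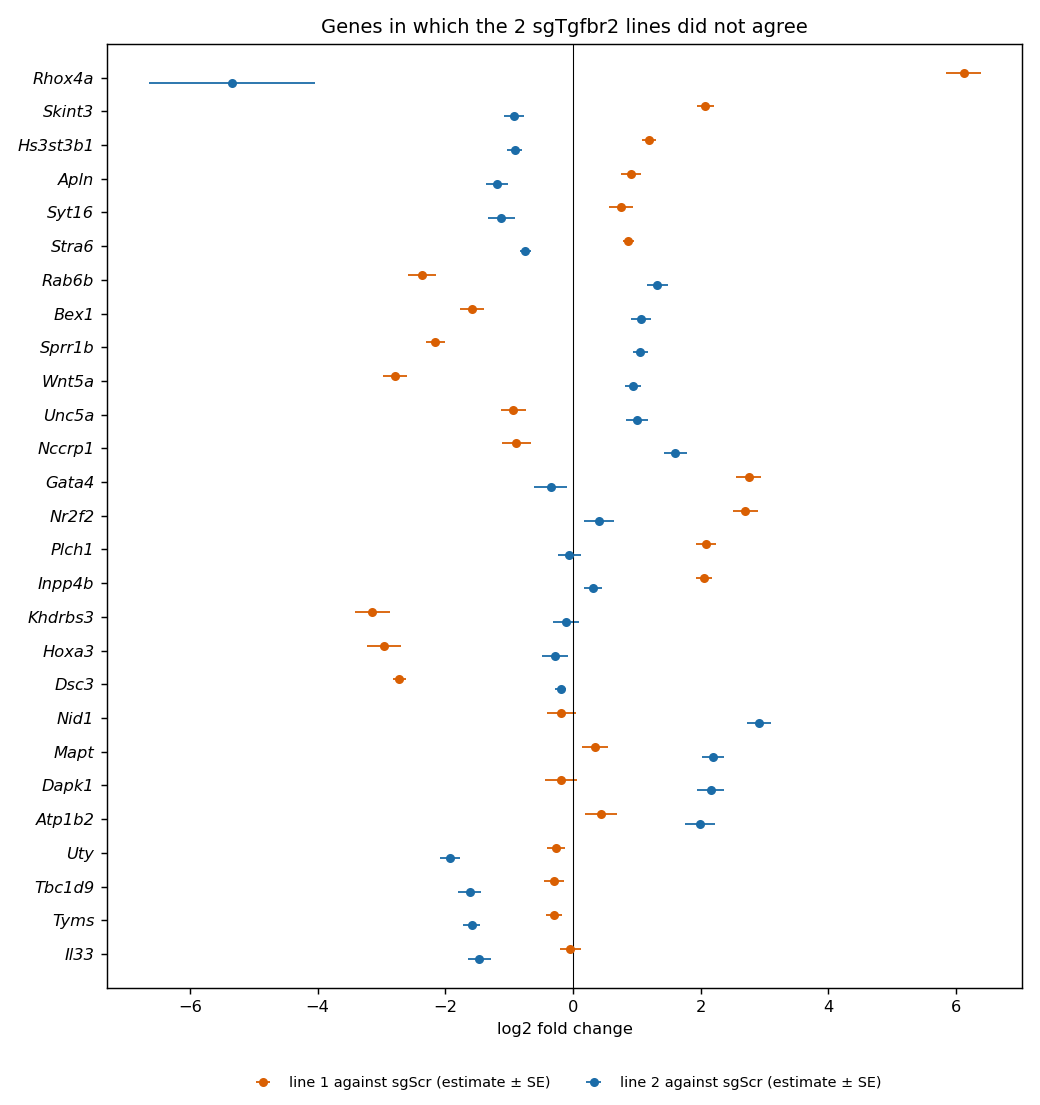
Log2 fold change against sgScr (estimate ± SE) in line 1 (orange) and line 2 (blue) for the 12 opposite genes and 15 genes that passed in 1 line only and differed between the lines. The estimates of the 12 top genes lie on both sides of 0, and that of Rhox4a in line 2 rests on no counts.

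Markers of other cell types were at low levels, and their part in the results was not tested. The immune, endothelial, fibroblast and muscle sums were higher in every sgTgfbr2 library than in every sgScr library. The gland and columnar sums and the neural sums overlapped between sgScr and sgTgfbr2. The 14 immune markers summed to 17.7 to 31.1 CPM in sgScr and 39.4 to 65.1 CPM in sgTgfbr2, most of it Cd68, a lysosomal gene that epithelial cells also express, with Cd3e, Adgre1, Lyz2 and Tyrobp listed at 0 in every library. The 10 endothelial markers summed to 4.69 to 5.75 and 8.96 to 17.9 CPM, led by Flt1, which lies on chromosome 5, with Emcn at 0. The 12 fibroblast markers summed to 2.98 to 3.28 and 3.31 to 6.65 CPM, with Col3a1 and Lum at 0. The 12 muscle markers summed to 6.85 to 7.22 and 8.69 to 16.2 CPM, 14 gland and columnar markers to 1.47 to 3.21 and 2.94 to 3.89 CPM, and 9 neural markers to 99.7 to 108 and 107 to 171 CPM, led by Ngfr and with Sox10 at 0. In bulk samples, more cells of a type and more RNA per cell cannot be told apart.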

How the data were processed

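RNA of 7 premalignant organoid libraries was analysed. Per the submitters' processing notes, reads were aligned with STAR 2.6.0a to mm10 and analysed with DESeq2 1.26.0; which program, strand setting and annotation did the counting was not given in the sources used here. Whole-number counts per gene are what the authors deposited. The same authors' deposited table holds log2 fold changes and p-values of all 4 sgTgfbr2 libraries against sgScr, used only as stated. In all, 7 per-sample columns of normalized values in the same table were not used.

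Counts were fitted with edgeR 4.0.16 in R 4.3.3 (TMM scaling, quasi-likelihood test, Benjamini-Hochberg adjustment over all genes, threshold 0.05). Of 24421 genes, 13438 passed filterByExpr with a minimum count of 10. One fit pooled the 4 sgTgfbr2 libraries, and another held 3 groups, giving line 1, line 2 and line 2 minus line 1. Replicate numbers did not pair libraries (correlations of deviations -0.0876 to 0.128). Libraries held 15405369 to 21784140 counts; arguments from a count of 0 use 3 counts over the group and cover counting error only. Alternatives were DESeq2 1.42.0, limma-voom (limma 3.58.1), other scalings and filters, the replicate block, each library left out and chromosomes left out.

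The members and gene lists were chosen with earlier results of these data known. Named genes were Smad3 and the targeted and engineered genes, those (at a mean of 5 CPM or more) with the largest smaller change of both lines (15 higher, 15 lower), the 6 in each orientation that moved oppositely, 4 in each direction that passed in one line only with a difference between the lines, and, per list, up to 6 members with the smallest pooled p and any opposite ones, plus central regulators. Asns, Cacna1c, Cacna1g, Cxcl1, Fosl1, Krt18, Krt20, Nfkb2, Npm1, Pcna, Rel, Relb, Etv4, Etv5, Spred1 and Spry1 were named after their values were seen. Some genes that these rules name are not reported here. Promoters are RefSeq GRCm38.p6, with 8132 tested genes having a single window.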

Additional observations from a re-analysis of the deposited data

Results flagged for a closer look

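One library stood apart within the 4 sgTgfbr2 libraries for Plekhs1, whose gap to the nearest library was 0.838 of the range; 65 such groups of 4 were looked at, and chance flags about 1 in 20.

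The lines differed past the threshold (edgeR quasi-likelihood test of line 2 minus line 1, Benjamini-Hochberg adjustment) in 47 of 62 named genes, listed here as log2 differences. Over all genes tested the share was 26.3%. The 47 include 27 genes chosen for opposite movement or for passing in 1 line only, so the count is no result about the named genes. Of the targeted and engineered genes, Tgfbr2 differed by -0.43, Trp53 by 0.275, Cdkn2a by 0.269 and Myc by 0.418. Of the genes that rose furthest in both lines, the difference was -1.296 for Ltbp2, -2.794 for Lcn2, -3.866 for Lypd2, -0.752 for Psors1c2, -0.647 for Nfatc2, -1.225 for Duox2, -2.378 for Nos2, -1.7 for Spn, -2.853 for Steap4 and 0.314 for Gabrp. Of those that fell furthest it was 1.826 for Krt13, -0.349 for Krt16, 2.064 for Tbx2, 0.512 for Krt6b, -0.615 for Adh7 and 0.44 for Krt6a. Among the risen genes listed here, Gabrp was the one that was higher in line 2.

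Among genes with opposite movement, line 1 exceeded line 2 by at least 237.95-fold for Rhox4a, and the log2 difference was -2.994 for Skint3, -2.108 for Hs3st3b1, -2.099 for Apln, -1.873 for Syt16 and -1.614 for Stra6. It was 3.688 for Rab6b, 2.642 for Bex1, 3.213 for Sprr1b, 3.727 for Wnt5a, 1.936 for Unc5a and 2.491 for Nccrp1. Genes that passed in line 1 only differed by -3.101 for Gata4, -2.29 for Nr2f2, -2.145 for Plch1, -1.737 for Inpp4b, 3.034 for Khdrbs3, 2.671 for Hoxa3 and 2.524 for Dsc3. Genes that passed in line 2 only differed by 3.099 for Nid1, 1.842 for Mapt, 2.343 for Dapk1, 1.552 for Atp1b2, -1.664 for Uty, -1.317 for Tbc1d9, -1.291 for Tyms and -1.428 for Il33. These 27 genes were chosen for differing between the lines, so their difference is a description.

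The median line 2 minus line 1 difference was -0.417 over chromosome 5 and 0.177 over chromosome 14; these medians were not tested.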

How the results depend on the processing

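Directions held under nearly every alternative for the named genes, apart from those named only through a list, which were not tallied. Of their values, 2055 kept direction and side of the threshold, 21 passed newly, 2 no longer passed and 8 changed sign. Most of these genes were chosen for large changes in these data. With chromosomes left out the fit was not rerun, so values in that setting were the same by construction. Requiring 1 on the log2 scale left 1139 and 463 genes higher and lower pooled, 1156 and 597 in line 1, 1365 and 721 in line 2, 525 and 333 for line 2 minus line 1, and 735, 274 and 19 higher in both, lower in both and opposite. Summing counts per line left 2044 lower pooled calls. With the replicate block, 2665 and 2700 genes differed between the lines, although the numbers do not pair libraries. With chromosomes 1, 5, 14 and Y left out, a choice made after seeing the data, 107 genes were opposite. Among gene lists, the block moved genes lower in both lines from 15 to 30 for oxidative phosphorylation and from 6 to 11 for mitosis, and genes higher in both from 7 to 11 for TGF-beta targets. The cause was not tested for any of these.

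Leaving out each library in turn gave 1954 to 3015 higher and 2089 to 3122 lower genes pooled, 2275 to 3670 and 2258 to 4116 in line 1, 2808 to 4227 and 2878 to 4286 in line 2, 691 to 2519 and 757 to 2528 for line 2 minus line 1, 1724 to 2852 higher in both, 1721 to 3179 lower in both and 95 to 222 opposite. A line left with 1 library is assumed to vary like the other groups. Some estimates changed sign when 1 library was left out, and where the sign differed from that with all libraries the estimate did not pass: Nid1 in line 1 (-0.5564 to 0.121), Dapk1 in line 1 (-0.4307 to 0.1753, and 0.1757 with the replicate block), Il33 in line 1 (-0.1225 to 0.0399), Nr2f2 in line 2 (-0.0427 to 0.7325) and Plch1 in line 2 (-0.1247 to 6e-04). Lost calls were Nccrp1 in line 1 without line 1 replicate 2 (-0.8069) and Trp53 in line 2 without line 2 replicate 1 (-0.3063).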

Other observations

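Of 16 tested Notch pathway genes, 3 rose in both, 2 fell in both (1 without line 1 replicate 2) and 5 passed in line 2 only. Notch3, a suprabasal Notch receptor gene, was at 91.1, 76.8 and 106 in sgScr, 162 and 161 in line 1, and 180.2 and 158 in line 2. Notch1 was at 60.6, 52.4 and 75.04 in sgScr, 124 and 120.5 in line 1, and 214 and 182 in line 2. Rbpj, which encodes the DNA-binding partner of Notch and lies on chromosome 5, was at 142, 134 and 161 in sgScr, 287 and 306 in line 1, and 251 and 227 in line 2. All 3 rose in both lines, Notch1 further in line 2. Of 21 Wnt feedback and target genes, 4 rose in both lines and 3 fell in both, and without either library of line 1 the first count was 2. The Notch and Wnt shares lay within 10 percentage points of those over all genes (18.2% higher and 19.8% lower in both lines). These counts are thus no result about the 2 lists. Wnt7b was at 70.8, 69.7 and 76.01 in sgScr, 157 and 157 in line 1, and 123 and 117 in line 2. Wnt4 was at 114, 118 and 108 in sgScr, 79.8 and 75.2 in line 1, and 71.7 and 76.5 in line 2. Wnt7b rose and Wnt4 fell in both lines.

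The p53 target list had 6 of 20 higher and 4 lower in both lines in organoids labelled Trp53-/-. Btg2, an antiproliferative gene in the part of chromosome 1 that stood high in both lines, was at 27.4, 26.4 and 30.998 in sgScr, 70.3 and 76.99 in line 1, and 114 and 115 in line 2. Pmaip1, which encodes the BH3-only protein NOXA, was at 83.6, 86.3 and 94.8 in sgScr, 134 and 156 in line 1, and 158 and 153 in line 2. Both rose in both lines. Sesn1 moved in opposite directions (33.8, 37.1 and 35.6 in sgScr, 27.9 and 31.1 in line 1, and 47.1 and 49.97 in line 2). Of 15 cytosolic and mitochondrial heat shock genes, 6 fell in both lines, led by the mitochondrial chaperone gene Hspd1 in the part of chromosome 1 that stood low in both lines (1843, 2153 and 1468 in sgScr, 875 and 752 in line 1, and 566 and 611 in line 2). Of 28 hypoxia and glycolysis genes, 8 fell in both lines (28.6%) and 2 rose in both (7.1%), against 19.8% and 18.2% of all genes. The genes that fell numbered 5 and 4 without line 1 replicate 1 and 2 in turn. Car9, a carbonic anhydrase gene induced by hypoxia, was opposite (54.2, 51.03 and 67.6 in sgScr, 27.4 and 31.2 in line 1, and 93.3 and 92.3 in line 2).

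Of 15 MHC class I and peptide loading genes, 4 rose in both lines (26.7%, against 18.2% of all genes). Lower levels in line 2 than in line 1 were called for 9, against 13.1% of all genes. B2m, the light chain of class I, was at 163, 181 and 178 in sgScr, 247 and 270.4 in line 1, and 197 and 211 in line 2. Without line 1 replicate 1, line 1 replicate 2 or line 2 replicate 1, 2 members rose in both lines.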
